A study of Saccharomyces cerevisiae with 6 samples.

Results

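The stretches of the budding yeast genome described here are 497 windows of 1 kb that took insertions in every one of 6 transposon calling cards libraries. Windows were numbered from position 1 of each of the 16 chromosomes, and a window was a member when it held at least 3 insertions in each library and lay outside the outer 25 kb of its chromosome. The members were therefore selected on the insertion counts of all 6 libraries, and those counts are given as a description, with no test. They are 497 of 11224 windows outside the chromosome ends (4.43%) and of 12040 windows in all. A further 34 windows met the same minimum inside the outer 25 kb and were left out.

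Transposon calling cards marks where a transcription factor (TF) sits by joining it to Sir4, which recruits the retrotransposon Ty5, so that Ty5 integrates into nearby DNA. Sir4 is a structural protein of silent chromatin, and Ty5 left to itself uses it to integrate into silent DNA at telomeres and silent mating-type loci. Once Sir4 is carried by a TF, insertions collect in the DNA around the places the fusion visits, which in yeast are mostly promoters. A place that collects insertions whichever TF carries Sir4 is of interest because it forms the background from which the targets of any single TF have to be told.

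The 6 libraries carried Sir4 fused to Eds1, Ino4, Leu3, Rgt1, Sfp1 or Zap1, with 1 library per TF, so no comparison has a replicate check and no p-values are given. All were made in strain BY4741 with the genotype sir4D, which lacks its own SIR4, and each received the fusion, with Sir4 at the C-terminus of the TF, on a plasmid, and on another a barcoded Ty5 that carries HIS3 and is driven by the GAL1/10 promoter. Cells from 1 clone were grown on galactose for 3 days, passed to rich medium for 2 days and then selected for the inserted HIS3 on plates with 5-fluoroorotic acid for 3 days. DNA next to the insertions was recovered by inverse PCR after 3 separate restriction digests, and each line of a file is 1 insertion with its chromosome, its position and its reads. Leu3 regulates leucine and branched-chain amino acid synthesis, Ino4 phospholipid synthesis together with Ino2, Rgt1 the hexose transporter genes, Sfp1 ribosomal protein and ribosome biogenesis genes, and Zap1 the zinc response, while Eds1 is the paralog of Rgt1. The libraries held 15951 (Ino4), 16019 (Zap1), 29776 (Rgt1), 30707 (Eds1), 35758 (Sfp1) and 75550 (Leu3) insertions. In all 203761 insertions were recovered, of which 59477 (29.2%) lay in the 497 windows.

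The windows took up 25.7% to 27.4% of 4 libraries and stood apart in the other 2. They held 26.6% of the Eds1 insertions (exact 95% interval 26.1 to 27.1), 26.9% of Ino4 (26.3 to 27.6), 25.7% of Sfp1 (25.3 to 26.2) and 27.4% of Zap1 (26.7 to 28.1). Leu3 stood above these with 36.2% (35.9 to 36.6), and Rgt1 below with 20.3% (19.9 to 20.8). These Clopper-Pearson intervals cover counting error only, since positions repeat and PCR reads carry no molecular identifiers. The 58 windows raised 4-fold in a library, described further on, were then set aside. The remaining 439 held 20.0% of Leu3, 21.6% of Eds1, 21.6% of Zap1, 22.4% of Sfp1, 22.6% of Ino4 and 11.1% of Rgt1. Of the 58, 36 were set aside for a high Leu3 share and 10 for a high Rgt1 share. The falls of Leu3 and Rgt1 therefore follow from the choice, and nothing is read from them.

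Insertions per window, scaled to 10000 insertions of a library, had medians of 4.23 in Eds1, 4.39 in Ino4, 3.57 in Leu3, 2.02 in Rgt1, 4.47 in Sfp1 and 4.37 in Zap1. Rgt1 was the library with the lowest share in 326 of the 497 windows, against 73 for Leu3, 31 for Zap1, 29 for Sfp1, 23 for Eds1 and 15 for Ino4. Repeated positions outside the windows enlarge the Rgt1 total by which its values are scaled. The library with the highest share was more evenly divided, with Ino4 leading in 115 windows, Leu3 in 99, Sfp1 in 96, Zap1 in 87, Eds1 in 77 and Rgt1 in 23.

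**Figure D1:**
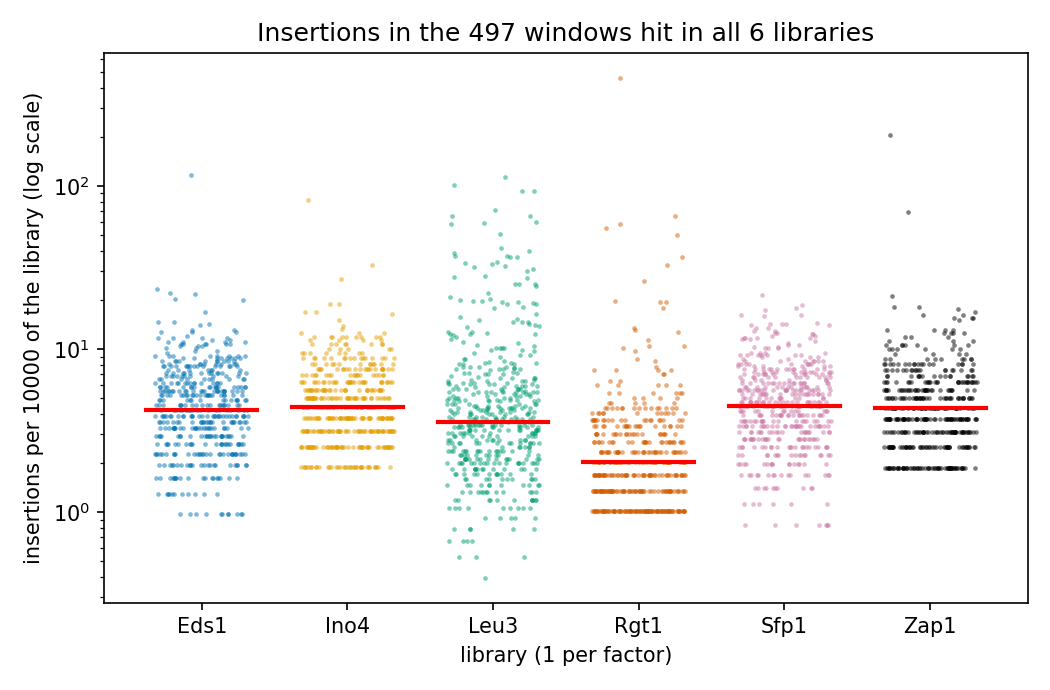
Each point is 1 of the 497 windows, by library, with insertions per 10000 of that library on a log axis. Red lines are medians, which lie between 3.57 and 4.47 in 5 libraries and at 2.02 in Rgt1, and the highest points belong to Rgt1 and Zap1.

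Rgt1 also set most of the edge of the set. Exactly 3 insertions in the least-hit library were found in 173 members, with 24 to 921 insertions in all and a median of 58, and in 105 of these Rgt1 was at the minimum. Just outside were 373 windows whose least-hit library held 2 insertions, with 13 to 1689 insertions in all and a median of 36, and Rgt1 was at that minimum in 213. Leaving Rgt1 out of the requirement gave 792 windows in place of 497, while leaving out Leu3 or Sfp1 gave 498 and 500.

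How the windows were spread was examined next. Every chromosome had members, from 5 on chromosome VI to 75 on chromosome IV. The fraction of windows outside the ends that were members was 2.27% on VI (interval 0.742 to 5.22) and 6.14% on V (4.24 to 8.56), the lowest and highest of the 16, and these intervals overlap. By distance from the nearer chromosome end the fraction was 2.88% (1.83 to 4.28) between 25 and 50 kb, 3.88% (2.98 to 4.94) from 50 to 100 kb, 4.26% (3.55 to 5.07) from 100 to 200 kb, 4.71% (4.09 to 5.40) from 200 to 400 kb and 5.19% (4.23 to 6.31) beyond. The order of the 5 classes runs inwards, although neighbouring classes overlap in their intervals. Successive members on a chromosome were a median of 14 windows apart, and the longest step was 128.

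Many members touched each other. The 497 windows formed 399 separate stretches, of which 324 were single windows, 58 were pairs, 11 were of 3 and 6 were of 4, so that 173 members (34.8%) touched another. Stretches of several windows are not independent sites, since 1 cluster of insertions can cross a window border.

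Genes could be named where the authors' promoters were placed in the coordinates of the files, which was possible for 940 genes of chromosomes I to V with at least 10 insertions in their promoter. Of the 161 members on these chromosomes, 150 (93.2%) overlapped a placed promoter, against 406 of 485 (83.7%) of the other windows outside the ends with 18 or more insertions, the least that a member can hold. In the median member 83.3% of insertions lay in placed promoters, and in the median of the other windows 76.7%. A window is named for every placed promoter that it overlaps, even where few of its insertions lie there. Among windows named below, placed promoters held, for example, 7.22% at YBR032W, 13.4% at PDR15 (chrIV:1279001-1280000), 18.7% at YAP6, 27.3% at YDR344C and 32.6% at CCW22. Promoters shared by genes transcribed in opposite directions were present in 41 of the 150 (27.3%) and in 133 of the 406 (32.8%). A tRNA gene was next in gene order to the promoters of 14 members (9.33%) and of 53 other windows (13.1%). Members hold more insertions than the other windows, with a median of 85 against 26, and promoters with more insertions are easier to place. No source used here names the genome release of the files, so positions are those of the files, and members on chromosomes VI to XVI are given by position only.

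The window with the highest minimum share over the libraries was chrIV:1011001-1012000. It overlapped the placed promoters of YDR274C and TLD1, but these held 4.76% of its insertions. It held 43 insertions in Eds1, 43 in Ino4, 93 in Leu3, 53 in Rgt1, 41 in Sfp1 and 21 in Zap1. Its lowest share was 11.5 per 10000 in Sfp1, where no other member had a lowest share above 8.12, and its highest was 27.0 in Ino4, 2.35 times as large. Insertions lay around the same place in each library, with medians 616 to 693 bp into the window.

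Second was the window of YAP6, which encodes a basic leucine zipper TF, at chrIV:976001-977000. There were 45 insertions in Eds1, 19 in Ino4, 79 in Leu3, 39 in Rgt1, 46 in Sfp1 and 13 in Zap1, or 8.12 to 14.7 per 10000. The 6 libraries differed by only 1.81 times, and their medians fell between 533 and 606 bp into the window. Of the insertions of the other 5 libraries 63.0% lay in the 200 bp densest for Leu3.

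Of the other 8 windows with the highest minimum share, 2 carried a placed promoter. At VHR2, another TF gene (chrV:284001-285000), the counts were 36 in Eds1, 9 in Ino4, 59 in Leu3, 18 in Rgt1, 46 in Sfp1 and 17 in Zap1. At DOT6, a repressor of ribosome biogenesis genes (chrV:335001-336000), they were 26, 16, 188, 23, 20 and 28 in the same order. DOT6 was more uneven than VHR2, with 24.9 per 10000 in Leu3 against 5.59 in Sfp1.

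The remaining 6 could only be given by position. In chrXIII:653001-654000 Eds1 held 62 insertions, Ino4 27, Leu3 55, Rgt1 40, Sfp1 57 and Zap1 29, and Leu3, the deepest library, had the lowest share, 7.28 per 10000. In chrXIII:540001-541000 Leu3 led instead, with 250 insertions against 52 in Eds1, 12 in Ino4, 31 in Rgt1, 40 in Sfp1 and 9 in Zap1. In chrVII:592001-593000 Rgt1 led, with 78 insertions against 37 in Eds1, 18 in Ino4, 39 in Leu3, 19 in Sfp1 and 8 in Zap1. The lowest share in the last 3, chrXVI:840001-841000, chrXIV:355001-356000 and chrX:123001-124000, was 6.05, 5.04 and 5.04 per 10000, each time in Rgt1. These positions show that a high minimum did not mean equal use, since the highest share among the 10 windows ranged from 1.73 to 5.89 times the lowest.

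**Figure D2:**
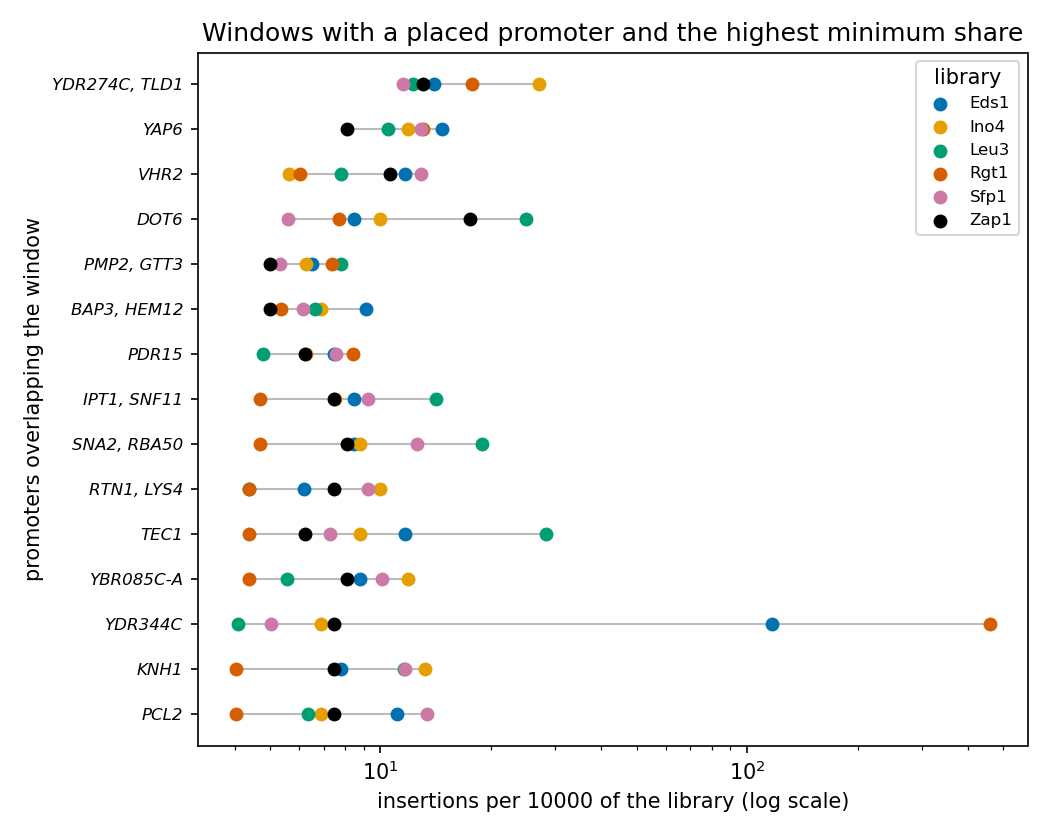
Insertions per 10000 of each library (log axis) for the 15 windows with a placed promoter whose lowest share was highest, 1 point per library and 1 row per window. Most rows span less than a factor of 5, while in the row of YDR344C Rgt1 and Eds1 stand far to the right of the other 4 libraries.

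Evenness across libraries ranged widely. The highest share was a median of 4.20 times the lowest, with quartiles of 3.07 and 6.07 and extremes of 1.52 and 112. It was under 2 in 31 windows, from 2 to 4 in 191, from 4 to 10 in 213 and 10 or more in 62. Median counts per member were 6 in Rgt1 and 7 in Ino4 and Zap1, so counting error alone widens this ratio. How much of the spread is counting error was not tested. Shannon evenness of the 6 shares, which is 1 for equal shares, had a median of 0.946 in members and 0.873 in the 1715 other windows with 18 or more insertions. This difference was built in by the requirement of 3 insertions in each library, because 662 (38.6%) of the others had a library at 0.

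The most even windows were those of PMP2 and GTT3, PDR15, JIP4, an unnamed window on chromosome XIV and CCW22. At PMP2, a small proteolipid associated with the plasma membrane proton pump, and GTT3 (chrV:123001-124000), there were 20 insertions in Eds1, 10 in Ino4, 59 in Leu3, 22 in Rgt1, 19 in Sfp1 and 8 in Zap1, with a highest share 1.56 times the lowest. At PDR15, a transporter of the ATP-binding cassette family (chrIV:1279001-1280000), there were 10, 4, 25, 10, 14 and 4 in that order, a factor of 1.57. At JIP4 (chrIV:1410001-1411000) the counts were 11, 4, 21, 7, 12 and 4, which gave the smallest factor of all members, 1.52. For the library with the highest share in these 3 windows, the ratio to the other 5 pooled was 1.27 (0.889 to 1.80), 1.24 (0.636 to 2.27) and 1.29 (0.605 to 2.52). These windows were named for their evenness by the same counts, so the ratios near 1 are a description. The CCW22 window, next to a cell wall protein gene (chrIV:722001-723000), differed by 1.82 times and the one at chrXIV:355001-356000 by 1.73.

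**Figure D3:**
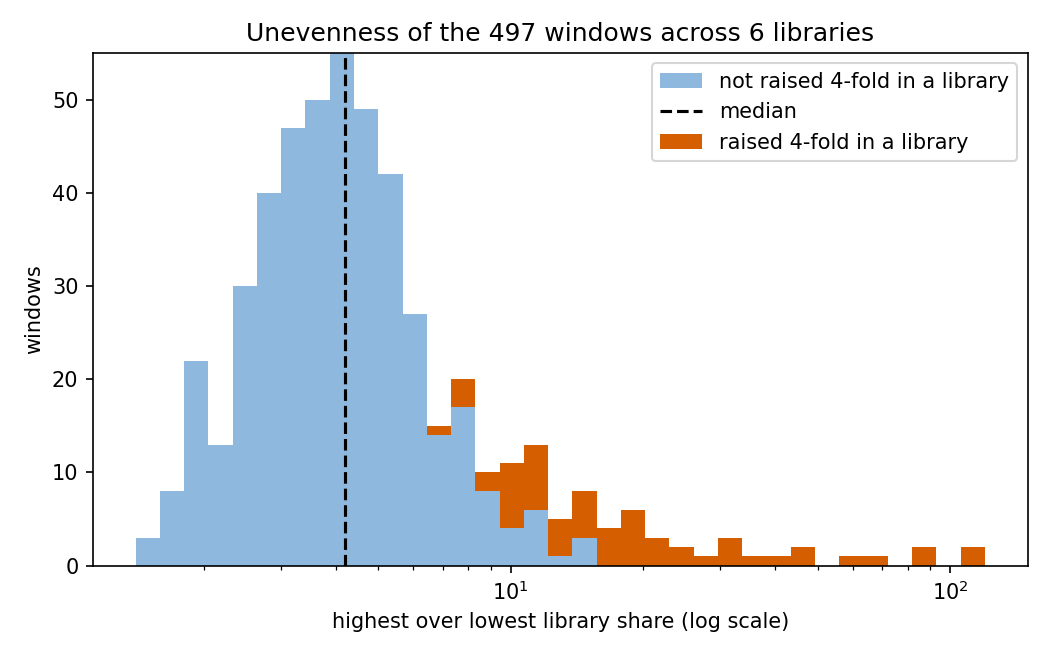
Number of windows by the highest over the lowest library share (log axis), with the 58 windows raised 4-fold in a library in orange on top of the 439 others in blue. The dashed line is the median, 4.20, and every window beyond 14.2 was raised in a library.

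The least even windows were hit in every library but mainly by one. In chrXII:404001-405000 Zap1 had 326 insertions, against 8 in Eds1, 7 in Ino4, 22 in Leu3, 7 in Rgt1 and 25 in Sfp1, and its share was 55.4 times that of the other 5 libraries pooled (conditional exact 95% interval 42.6 to 72.9). In chrVII:802001-803000 Ino4 had 130 insertions and no other library more than 14, a ratio of 42.5 (29.2 to 63.3). In chrVII:371001-372000 Leu3 had 455 insertions and the others 4 to 9, a ratio of 24.9 (17.3 to 37.1). Each of these windows passed the minimum in all libraries while 1 library supplied most of its insertions.

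The remaining windows of this kind belonged to Leu3 and Rgt1. In chrXII:839001-840000 Leu3 had 699 insertions against 51 in the others together, a ratio of 23.3 (17.5 to 31.5). At YBL029C-A and YBL029W (chrII:165001-166000) Leu3 had 856, Eds1 12, Ino4 14, Rgt1 3, Sfp1 28 and Zap1 8, a ratio of 22.3 (17.4 to 29.2). The window with most insertions of all members, 1798, overlapped the promoter of YDR344C, which neighbours the hexose transporter gene HXT3 (chrIV:1162001-1163000). There Rgt1 had 1366 insertions and its paralog Eds1 360, while Ino4 had 11, Leu3 31, Sfp1 18 and Zap1 12. The Rgt1 share was 18.5 times that of the others pooled (16.6 to 20.6), with Eds1 among those others.

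A window was called raised in a library when its share there was at least 4 times that in the other 5 pooled and the interval of the ratio lay above 1. Of the 497 members 58 (11.7%) were raised in a library, beside 332 of all 2212 windows with 18 or more insertions (15.0%). Members raised in Leu3 numbered 36 (7.24%, background 4.20%), in Rgt1 10 (2.01%, background 3.12%), in Ino4 5 (1.01%, background 2.44%), in Zap1 4 (0.805%, background 2.12%), in Sfp1 3 (0.604%, background 2.49%) and in Eds1 0 (background 0.633%, 14 windows). The rule for members used the same counts and requires 3 insertions in each of the other libraries, so nothing is read from members standing below or above the background. For Eds1 the other 5 include its paralog Rgt1, which lowers the Eds1 ratio wherever both are high. Of all windows raised in Leu3, 38.7% were members, against 14.5% for Rgt1, 9.26% for Ino4, 8.51% for Zap1 and 5.45% for Sfp1. When insertions within 5 bp of the one before were counted once, 7 members were called raised rather than 58. With Leu3 left out of the requirement and of the ratios, 23 of 498 windows were raised.

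**Figure D4:**
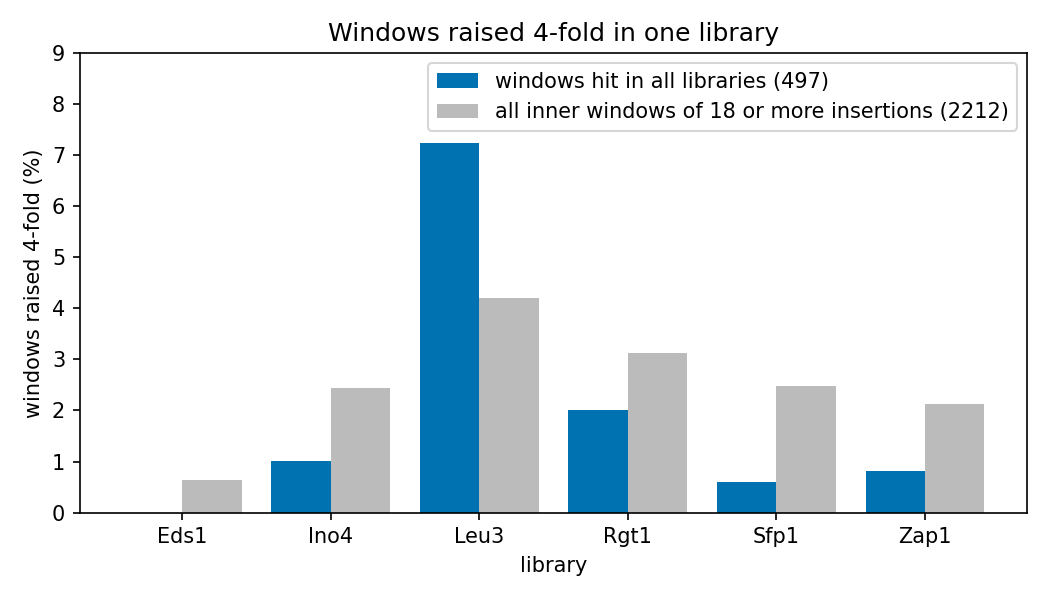
Percent of windows raised 4-fold in each library, for the 497 windows hit in all libraries (blue) and for the 2212 windows with 18 or more insertions outside the chromosome ends (grey), which include them. The blue bar is the taller only for Leu3, 7.24% against 4.20%, and there is none for Eds1.

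Beyond the windows already given, the 3 most raised members of each library were these. For Rgt1 they included chrVII:766001-767000, with 174 Rgt1 insertions against 77 in the others (ratio 13.2, interval 10.0 to 17.5). Also raised in Rgt1 was MTH1, a repressor of glucose signalling that acts with Rgt1 (chrIV:1016001-1017000), with 194 insertions in Rgt1, 72 in Eds1, 5 in Ino4, 10 in Leu3, 9 in Sfp1 and 3 in Zap1 (ratio 11.5, 8.94 to 14.7). Eds1 was far above the other 4 libraries there, as it was at YDR344C.

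For Sfp1 the ratios were smaller. They were 7.05 (4.74 to 10.6) at chrXV:967001-968000 with 66 insertions, 5.73 (3.72 to 8.88) at chrX:525001-526000 with 50, and 4.01 (2.71 to 5.89) at chrXIII:625001-626000 with 52. For Ino4, chrX:136001-137000 had 52 insertions and a ratio of 6.51 (4.55 to 9.24), and chrXI:608001-609000 had 12 and a ratio of 5.65 (2.59 to 11.7). For Zap1, chrXVI:75001-76000 had 111 insertions and a ratio of 8.29 (6.44 to 10.6), and chrXI:118001-119000 had 34 and a ratio of 6.64 (4.23 to 10.3). The 3 highest ratios of Eds1, to the others with Rgt1 among them, stayed under 4. They were 3.65 (2.03 to 6.42) for LYS2, an enzyme of lysine synthesis (chrII:474001-475000), 3.59 (1.97 to 6.39) for the multidrug transporter gene QDR3 (chrII:324001-325000) and 3.58 (2.35 to 5.40) for chrIII:122001-123000. At YDR344C Eds1 had 117 per 10000, against 4.10 to 7.49 in Ino4, Leu3, Sfp1 and Zap1, and was not called raised there.

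On chromosomes I to V 10 members were raised, 6 in Leu3 and 4 in Rgt1, and 9 of them had a placed promoter. In Leu3 these were YBL029C-A with YBL029W, YBR032W, TAT1, INO2 with YDR124W, and ALD5. The placed promoter of YBR032W held 7.22% of the insertions of its window, and those of the others 97.8% to 100%. At ALD5, a mitochondrial aldehyde dehydrogenase gene (chrV:303001-304000), Leu3 had 700 insertions, Eds1 33, Ino4 10, Rgt1 11, Sfp1 43 and Zap1 20, a ratio of 10.2 (8.34 to 12.5). At the amino acid permease gene TAT1 (chrII:378001-379000) Leu3 had 240, Eds1 13, Ino4 12, Rgt1 12, Sfp1 23 and Zap1 20, a ratio of 5.09 (3.94 to 6.64). INO2 encodes the partner of Ino4, and in its window (chrIV:699001-700000) Leu3 had 148 insertions, Ino4 19, Eds1 11, Rgt1 8, Sfp1 10 and Zap1 11. The Leu3 ratio at INO2 was 4.26 (3.13 to 5.86), and Ino4 had the next share.

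In Rgt1 the other 2 named windows were those of CDC19 and of CNL1 with GGA1. CDC19 encodes pyruvate kinase, and in its window (chrI:71001-72000) Rgt1 had 97 insertions, Eds1 44, Ino4 5, Leu3 8, Sfp1 9 and Zap1 6, a ratio of 7.87 (5.74 to 10.8). At CNL1 and GGA1 (chrIV:1189001-1190000) Rgt1 had 58, Eds1 18, Ino4 9, Leu3 20, Sfp1 12 and Zap1 6, a ratio of 5.21 (3.60 to 7.55). Eds1 had the next share after Rgt1 at CDC19, as at MTH1 and YDR344C.

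Among the longer stretches, 3 of the 6 runs of 4 windows could be named. On chromosome I, 68001 to 72000 took in CLN3 (a G1 cyclin), CYC3 (cytochrome c heme lyase) and CDC19, with 102 insertions in Eds1, 21 in Ino4, 107 in Leu3, 146 in Rgt1, 73 in Sfp1 and 35 in Zap1. The library with the highest share changed along it, from Sfp1 at CLN3 to Zap1 and Eds1 in the windows at CYC3 and Rgt1 at CDC19. Placed promoters held 21.1% of the insertions in the CLN3 window, 70.2% and 17.6% in those at CYC3 and 53.3% at CDC19. At CLN3 the Sfp1 ratio to the others pooled was 1.32 (0.829 to 2.04), a lead within counting error. On chromosome IV, 132001 to 136000 held MRX19, LYS20 (homocitrate synthase), INH1 (an inhibitor of the mitochondrial ATP synthase) and AIT1, with 52, 30, 95, 26, 62 and 22 insertions in the same order. Further along, 1011001 to 1015000 joined the YDR274C and TLD1 window to PMP3, a small membrane protein gene, with 75, 56, 177, 81, 76 and 32.

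The unnamed runs of 4 were on XI, XII and XIII. On XI, 67001 to 71000, Leu3 had 407 of 695 insertions. On XII, 368001 to 372000, Rgt1 (129) and Eds1 (102) were ahead of Leu3 (89), which held the most insertions over the members as a whole. On XIII, 431001 to 435000 had 310 insertions, with 95 in Leu3 and 25 in Rgt1.

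Of the 11 runs of 3 windows, 6 had placed promoters, though not always in every window. On chromosome II, 406001 to 409000 covered UBC4 (a ubiquitin-conjugating enzyme) and TEC1 (a TF of filamentous growth), with 520 insertions, 285 of them in Leu3. On chromosome IV were those of NRG1, a zinc-finger repressor (542001 to 545000, 223 insertions), and of IPT1, SNF11 and TPS2, which act in sphingolipid synthesis, chromatin remodelling and trehalose synthesis (591001 to 594000, 395 insertions). In the NRG1 run the first window held 99 insertions and had no placed promoter, and in the last the NRG1 promoter held 20.4% of insertions. The run at ENT5, CPR1, RPA14 and YDR157W (768001 to 771000) had 406 insertions, 263 in Leu3. Its last window, which had no placed promoter and was itself raised in Leu3, held 264 of them, 206 in Leu3. The run at COI1, RPP2B and NKP1 (1238001 to 1241000) had 110 insertions, the fewest of any of the 17 longer stretches. The run at IRC22 on chromosome V (151001 to 154000) had 274, of which 67 lay in the window that overlaps the IRC22 promoter. The other 5 lay at chrVII:383001-386000, chrXI:258001-261000, chrXV:907001-910000, chrXV:987001-990000 and chrXVI:828001-831000, with 296, 464, 346, 713 and 223 insertions. Scaled to the library totals, the highest share of a stretch was in Leu3 for 7 of the 17, in Ino4 for 5, in Rgt1 for 2 and in Eds1, Sfp1 and Zap1 for 1 each.

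Gene lists were compared with the 187 of 940 placed genes (19.9%) whose promoter overlapped a member. The lists are small, and the counts are given with no test. Of glycolysis and fermentation genes 5 were on chromosomes I to V, 4 were placed, and CDC19, GLK1 and PGK1 were in members. The GLK1 window (glucokinase, chrIII:50001-51000), which also overlaps PDI1 and YCL042W, had 8 insertions in Eds1, 5 in Ino4, 25 in Leu3, 3 in Rgt1, 18 in Sfp1 and 6 in Zap1. The PGK1 window (phosphoglycerate kinase, chrIII:137001-138000), shared with ADP1, had 4, 4, 18, 4, 5 and 4. Neither was near the level of CDC19, and no library stood out at PGK1, where the highest share was 1.93 times the lowest.

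Transposition took place on galactose, and 4 galactose genes were placed, of which GAL7 was in members. GAL7, a galactose-catabolic enzyme gene, overlapped a pair of touching windows (chrII:275001-277000). The first held 14 insertions in Eds1, 8 in Ino4, 9 in Leu3, 5 in Rgt1, 23 in Sfp1 and 6 in Zap1, and the other 12, 4, 13, 3, 15 and 6. Sfp1 had the highest share in both, with ratios to the other 5 pooled of 2.57 (1.48 to 4.38) and 1.85 (0.948 to 3.45). The lead in the latter was within counting error. Of histone genes 6 were placed and 2 were in members, HHF1 and HHT1, which share a promoter (chrII:255001-256000) with 11, 4, 15, 7, 16 and 5 insertions.

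Ribosomal protein genes were in members for 5 of 27 placed (18.5%), near the 19.9% of all placed genes. These were RPL41A, RPP1B, RPP2B, RPS18A and RPS26B. The fullest of their windows, that of RPS26B and COM2 (chrV:423001-424000), had 18 insertions in Eds1, 11 in Ino4, 18 in Leu3, 6 in Rgt1, 20 in Sfp1 and 8 in Zap1. Sfp1, whose known targets include this gene class, had the highest share in none of the 6 windows that these genes overlap.

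Of hexose transporter genes and glucose sensors 4 of 7 were placed, and RGT2, a glucose sensor gene, was in a member together with SCM3 (chrIV:212001-213000). It had 22 insertions in Eds1, 14 in Ino4, 35 in Leu3, 5 in Rgt1, 24 in Sfp1 and 8 in Zap1, so Rgt1 had the lowest share. Of known targets of Leu3, Rgt1, Ino4 and Zap1, 7 of 9 were placed, and 3 were in members, BAP3, INO2 and MTH1. BAP3, a branched-chain amino acid permease gene and Leu3 target, lay in 2 members (chrIV:550001-552000). They held 12, 7, 25, 12, 20 and 9 and then 28, 11, 50, 16, 22 and 8 insertions in the order of the libraries above. The highest share was 1.70 and 1.83 times the lowest there, in Zap1 and in Eds1, and Leu3 was not raised. The ratios of these leads to the other 5 pooled were 1.39 (0.611 to 2.78) and 1.47 (0.936 to 2.25), both within counting error. The 1 gene of the 6 TFs on these chromosomes was not placed.

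The promoter of SIR4 itself was in a member (chrIV:917001-918000), although the strain carries the genotype sir4D. It had 12 insertions in Eds1, 11 in Ino4, 22 in Leu3, 3 in Rgt1, 10 in Sfp1 and 3 in Zap1. The sources used here do not say what remains of the locus in this strain. SIR4, like NRG2 and PCL2, was picked after its values were seen. NRG2 (chrII:371001-372000), the paralog of NRG1, had 27, 18, 46, 11, 51 and 25 insertions in the same order of libraries, and PCL2, a cyclin of the Pho85 kinase (chrIV:234001-235000), had 34, 11, 48, 12, 48 and 12.

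Reads behind each insertion were not used to choose the windows. In 5 of 6 libraries insertions in the windows had more reads than those outside. The median was 4 reads inside and 3 outside in Eds1, 58 and 27 in Ino4, 30 and 13 in Leu3, 39 and 24 in Sfp1 and 45 and 18 in Zap1, whereas Rgt1 had 3 inside and 4 outside. Insertions with a single read were rarer inside in those 5 libraries, for example 9.87% against 13.2% in Ino4 and 12.6% against 17.8% in Zap1, and 26.9% against 25.7% in Rgt1. With the reads of each distinct position summed, the median stayed higher inside in 5 libraries. Eds1 and Rgt1 had far fewer reads per insertion than the other 4 throughout, and the part of read depth in these differences was not tested. With insertions of a single read left out, 350 of the 497 windows met the minimum.

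Lines of 5 of the files run through the chromosomes more than once, 16 times over the 6 files, and the sources used here do not say what these passes are. The median member had insertions in 14 of the 16 passes and 72 members in all of them. Among the other windows with 18 or more insertions the median was 10, and 3 were hit in all passes. This difference was also built in, since a window with a library at 0 misses every pass of that file and the other windows hold fewer insertions.

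Exact positions inside the windows were compared between libraries. The windows held 41401 distinct positions, of which 6558 (15.8%) were hit in 2 or more libraries and 1175 in 3 or more. In the rest of the genome outside the chromosome ends it was 6963 of 106295 (6.55%), where insertions are sparser. Within windows the distance between positions of different libraries had a fixed pattern. Coincidence at the same base was 2.33 times the level at 10 to 30 bp, fell to 0.887 at 2 bp and rose again to 1.62 at 4 bp and 1.28 at 5 bp. Outside the windows the coincidence at the same base was 2.36 times, so this pattern was not particular to them.

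**Figure D5:**
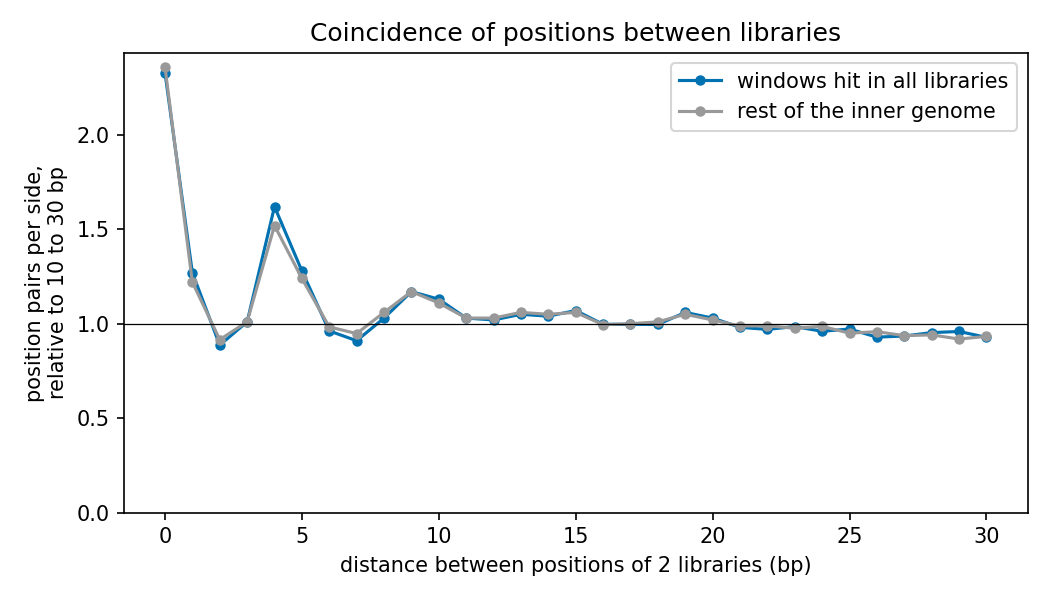
Pairs of positions from different libraries by their distance in bp, per side and relative to the mean at 10 to 30 bp, for the 497 windows (blue) and the rest of the genome outside the chromosome ends (grey). Both lines peak at 0 bp (2.33 and 2.36) and again at 4 bp.

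A pair of positions in the members was hit in all 6 libraries. Position 1011681 of chromosome IV, in the YDR274C and TLD1 window, had 2 insertions in Eds1, 1 in Ino4, 3 in Leu3, 1 in Rgt1, 3 in Sfp1 and 1 in Zap1. Position 837625 of chromosome XII had 2 in Leu3 and 1 in each other library. In that same window on chromosome IV a position 4 bp further along, 1011685, was hit in 5 libraries, by all but Rgt1. Positions shared by several libraries can be preferred sites or reads given to the wrong library, and which of these applies was not tested. When all positions held by 2 or more libraries were left out of every library, 286 of the 497 windows still met the minimum, and 25 of these were raised in a library.

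Coincidence was measured separately in the raised windows. In the 36 windows raised in Leu3, 53.5% of the positions of other libraries were also Leu3 positions, 1.77 times the 30.2% found at 10 to 30 bp from a Leu3 position. In the 439 windows raised in no library the figures were 16.5% and 6.59%, a factor of 2.50. In the 10 windows raised in Rgt1 they were 51.3% and 34.5%, a factor of 1.49, against 2.61 in the 439. The factors are not compared between these sets, because windows chosen for dense Leu3 or Rgt1 insertions have a high level at 10 to 30 bp, which limits how large the factor can be. In the windows raised in Ino4 the factor was 2.84, beside 2.75 in the 439, over 265 positions in 5 windows. For Sfp1 it was 2.26 beside 2.66, over 140 positions in 3 windows, and for Zap1 1.88 beside 2.75, over 292 positions in 4 windows.

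Insertions of different libraries also fell in the same part of a window. The 200 bp densest in Leu3 held 44.8% of the Eds1 insertions in members, 44.3% of Ino4, 46.1% of Rgt1, 44.7% of Sfp1 and 48.0% of Zap1, where an even spread gives 20%. It held more than 20% of the insertions of the other 5 libraries in 463 of the 497 windows (93.2%). In the other windows with 18 or more insertions that had at least 3 in Leu3 this was so in 1451 of 1662 (87.3%), and the median share was 48.1%, against 46.2% in members. The median positions of the 6 libraries within a member spanned a median of 216 bp, with quartiles of 130 and 327 bp. An exception was chrXIII:540001-541000, where the densest Leu3 stretch held 8.33% of the insertions of the others.

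Finally, the libraries were compared over the 497 windows by their shares. Spearman's rho between libraries ranged from 0.25 for Ino4 with Rgt1 to 0.54 for Eds1 with Rgt1, and was 0.53 for Eds1 with Leu3 and for Sfp1 with Zap1. These are descriptions over windows chosen by the same counts, in which neighbouring windows can share a cluster of insertions.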

How the data were processed

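Calling cards insertions of 6 TFs were analysed, with 1 library per TF, so no groups could be tested. The authors aligned the reads next to each Ty5 insertion (Novoalign is named in the submitters' processing notes, with no version) and deposited, per line, a chromosome, a position and the count of reads, with no normalization. Each line was taken as 1 insertion. Chromosome ends were taken at the highest position in the files. Shares have Clopper-Pearson and ratios conditional exact 95% intervals (Python 3.11.15, pandas 2.3.3, scipy 1.17.1), whose functions were tested on simulated data.

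Promoters were placed by matching the insertion counts implied by the authors' per-gene scores (1967 nuclear genes of a shortened copy) to stretches of at most 700 bp. Names and gene order came from RefSeq R64, none of whose coordinates was used. In all 762 genes under 10 insertions were not placed.

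Windows named were the 10 with the highest minimum share, the 5 most and 5 least even, the 3 most raised per library and stretches of 3 or more. Members, rules and lists were chosen with earlier results of these data known. Alternatives varied the minimum, window, chromosome ends, repeated positions, reads, ratio and libraries. Sequences were not used here.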

Additional observations from a re-analysis of the deposited data

How the results depend on the processing

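The number of windows depended most on the minimum. At least 2 insertions per library gave 870 windows in 678 stretches, 36.8% of the median library, a median highest over lowest share of 4.53 and 97 raised windows. At least 5 gave 219 windows, 194 stretches, 15.2%, 3.81 and 30. Leaving out positions held by 2 or more libraries, chosen after seeing the data, gave 286 windows, 241 stretches, 13.6%, 3.63 and 25. Counting insertions within 5 bp once gave 22.8% of the median library (26.7% as reported), a ratio of 2.43 and 7 raised windows, and counting distinct positions once a ratio of 3.28. Insertions of at least 2 reads gave 21.9%, and windows of 500 bp a ratio of 3.89. A ratio of 2 called 239 windows raised. Positions within 5 bp were shared for 68.2%. With each library left out in turn the windows numbered 498 (without Leu3; 497 as reported) to 792 (without Rgt1), those raised 23 (without Leu3) to 80 (without Zap1), and the median ratio was 2.96 (without Rgt1) to 4.04. In all, 40 of 70 alternative values were judged unchanged. Counts had to stay within 1.5 times the count reported, and shares within counting intervals. The median ratio had to stay within a rank interval of the median over windows, and the result on reads had to be equal. The cause of the changes was not tested. With 15951 insertions in the shallowest library, 3 insertions are 1.88 per 10000, so sites used less often could not be seen. No paired analysis was possible because each TF has 1 library.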
